A study of Mus musculus with 8 samples.

Results

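The 10 genes described here are the calcineurin and NFAT genes of the mouse: the transcription factor genes Nfatc1, Nfatc2, Nfatc3, Nfatc4 and Nfat5, the calcineurin subunit genes Ppp3ca, Ppp3cb and Ppp3r1, and the calcineurin regulator genes Rcan1 and Rcan2. They were picked by gene symbol, and all 10 were found among the 18877 genes of the table. RNA-seq was run in 4 wild-type and 4 mfn2-/- libraries of ASCs, the activated form of the muscle stem cells that repair injured skeletal muscle. The mice of both groups carried a Cre-dependent mito-Dendra2 fluorescent reporter driven by Pax7-Cre(ERT2), and the mfn2-/- mice also carried floxed Mfn2, the gene of the outer mitochondrial membrane protein mitofusin 2. Both groups received tamoxifen at 75 mg/kg for 5 days, then 50 µL of 1.2% BaCl2 in the tibialis anterior muscle 2 days after the last dose, and CD34-, Dendra2+, DAPI- cells were sorted 2 days after injury. Cre acts only in cells that express Pax7 when tamoxifen is given, so the deletion is limited to those cells and their progeny. Strain, age and sex, and whether each library came from its own animal, are not given in the sources used here, so p-values measure the spread between these libraries. The question was how transcripts of this pathway differ when Mfn2 is deleted, in a study that examined NFATC2 as a link between Mfn2 and Hif1a.

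Calcineurin is a phosphatase switched on by calcium and calmodulin. It consists of a catalytic subunit, encoded by Ppp3ca, Ppp3cb or Ppp3cc, and a calcium-binding regulatory subunit, encoded in most tissues by Ppp3r1. It removes phosphates from the cytoplasmic factors NFATc1 to NFATc4, which then enter the nucleus and bind DNA together with partners such as AP-1, while kinases such as GSK3, DYRK and casein kinase 1 send them back out. The RCAN proteins bind and restrain calcineurin, and a short form of Rcan1 is itself an NFAT target. NFAT5 shares the DNA-binding domain but lacks the calcineurin docking region and responds to osmotic stress. In skeletal muscle the pathway is known for slow fiber gene expression, for myoblast fusion and for myotube growth. Transcript levels do not report phosphatase activity or where a factor lies in the cell.

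NFAT proteins bind DNA around the core GGAAA, which is TTTCC on the other strand, and AP-1 binds TGANTCA. The 250 bases before annotated starts were therefore read from RefSeq (GRCm38.p6), and 13 windows of 8 of the 10 genes were used. Nfatc1 and Ppp3ca had no window in this set, and whether RefSeq holds windows for them is not reported here. The counts below therefore cover these 13 windows only. GGAAA or TTTCC was present in 8 of the 13 windows, against 55.6% of all 32851 mouse windows of that length, and 3 or more matches were present in 6.39% of all windows. The windows below are those of Nfatc2 and Nfatc4, the factor genes with the largest opposite changes described further on, and of Rcan1, whose internal start gives the NFAT-responsive short form. Each is given 5′ to 3′ on the strand of its gene, with GGAAA and TTTCC in capitals.
Nfatc2, chr2:168590366-168590615, minus strand: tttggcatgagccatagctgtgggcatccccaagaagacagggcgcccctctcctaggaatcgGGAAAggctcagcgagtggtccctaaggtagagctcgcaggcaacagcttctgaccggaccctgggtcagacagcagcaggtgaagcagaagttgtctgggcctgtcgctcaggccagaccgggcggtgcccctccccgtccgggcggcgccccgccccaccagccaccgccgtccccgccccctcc
Nfatc2, chr2:168601658-168601907, minus strand: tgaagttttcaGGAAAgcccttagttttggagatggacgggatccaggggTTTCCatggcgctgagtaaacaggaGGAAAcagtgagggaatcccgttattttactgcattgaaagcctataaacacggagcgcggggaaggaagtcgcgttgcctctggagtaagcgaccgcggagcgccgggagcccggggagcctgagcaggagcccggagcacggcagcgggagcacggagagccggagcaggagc
Nfatc4, chr14:55824545-55824794, plus strand: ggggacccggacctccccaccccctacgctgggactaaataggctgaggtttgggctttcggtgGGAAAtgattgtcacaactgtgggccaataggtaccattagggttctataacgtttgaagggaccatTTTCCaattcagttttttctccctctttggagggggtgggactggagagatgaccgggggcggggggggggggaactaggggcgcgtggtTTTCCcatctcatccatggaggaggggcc
Rcan1 internal start, chr16:92400079-92400328, minus strand: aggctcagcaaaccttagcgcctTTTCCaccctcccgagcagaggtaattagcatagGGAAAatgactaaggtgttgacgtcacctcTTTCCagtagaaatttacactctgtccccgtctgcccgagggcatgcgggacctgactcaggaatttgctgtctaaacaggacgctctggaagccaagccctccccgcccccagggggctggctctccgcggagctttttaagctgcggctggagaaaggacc
Rcan1 distal start, chr16:92466170-92466419, minus strand: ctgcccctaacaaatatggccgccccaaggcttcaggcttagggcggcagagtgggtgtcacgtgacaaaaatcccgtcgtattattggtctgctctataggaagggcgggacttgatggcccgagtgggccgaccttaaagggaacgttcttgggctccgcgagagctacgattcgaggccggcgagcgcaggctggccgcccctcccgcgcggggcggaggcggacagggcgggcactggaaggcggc
The windows of Nfatc2 differed, with 1 match in the first and 3 in the second. Nfatc4 had 3 matches, as did Ppp3cb, whose window is not shown. The internal start of Rcan1 had 3 matches and 1 TGANTCA, a motif held by 6.75% of all windows and by 1 other of the 13, a window of Rcan2, while its distal start had 0 of both. A match is a description of the letters and not a binding site, and the table gives 1 value per gene, so transcripts from the alternative starts of Nfatc2 and Rcan1 could not be told apart.

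Depth lay between 1880464 gene reads (wild-type replicate 1) and 7508215 (wild-type replicate 4), and mfn2-/- replicate 4 was the other shallow library with 2269009. Values are normalized reads, in which 1 read was worth 0.534 to 2.27, and changes are differences of log2(value + 1), mfn2-/- minus wild-type, with the standard error (SE) and the limma p adjusted over all 11754 genes tested. Reads of 4 Y-linked genes numbered 0 in the first and second wild-type libraries and in mfn2-/- replicates 3 and 4, whereas the other 4 libraries had 807 to 2336, so changes were also computed within each of these kinds of library. Mfn2 itself had values of 243, 245, 202 and 228 in the wild-type and 104, 118, 172 and 110 in the mfn2-/- libraries, without overlap, although its adjusted p was 0.0848 (limma). Of 10 myogenic genes, markers of the sorted cells, 4 were called higher, where 3.99% of all genes were, with a median of 0.27. These markers were present in every library, with a summed level of 9319 to 14332 in wild-type and 27440 to 41827 in mfn2-/- ASCs. Most of that sum was Sdc4, a proteoglycan (4271 ± 1529 and 17473 ± 3953), and Des, a muscle filament gene (2156 ± 888 and 7969 ± 2942), while Pax7, the factor that marks the lineage, was at 662 ± 45.9 and 715 ± 96.1. Markers of other cells also differed. Calls of a lower level in mfn2-/- ASCs were made for 10 of 12 fibroadipogenic and 9 of 10 tenocyte genes, where 6.36% of all genes were called lower. Summed levels in wild-type against mfn2-/- libraries were 195997 to 254296 against 6003 to 10145 for the fibroadipogenic genes. For the tenocyte genes they were 66192 to 81809 against 12457 to 45487. Nearly all of the mfn2-/- tenocyte sum was Egr1, an immediate early gene that was not called, and the other 9 genes summed to 38669 to 60889 in wild-type and 306 to 415 in mfn2-/- libraries. In bulk RNA, fewer cells of a type and less RNA per cell cannot be told apart.

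Of the 10 calcineurin and NFAT genes, 2 were called higher and 2 lower in mfn2-/- ASCs at an adjusted p under 0.05. Nfatc2 and Ppp3ca rose, by 2.57-fold and 3.07-fold in the ratio of means, and Nfatc4 and Ppp3r1 fell, by 4.67 and 0.80 on the log2 scale. Of all genes tested, 10.4% were called (1217 of 11754), 3.99% higher and 6.36% lower. For the same 4 genes the 2 groups were free of overlap, as were 19.5% of all genes (7.36% higher and 12.2% lower). The other 6 genes did not pass, 4 of them with a positive and 2 with a negative difference, and the median of the 10 was 0.49 against -0.16 for all genes. All 10 passed the filter on low values.

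**Figure D1:**
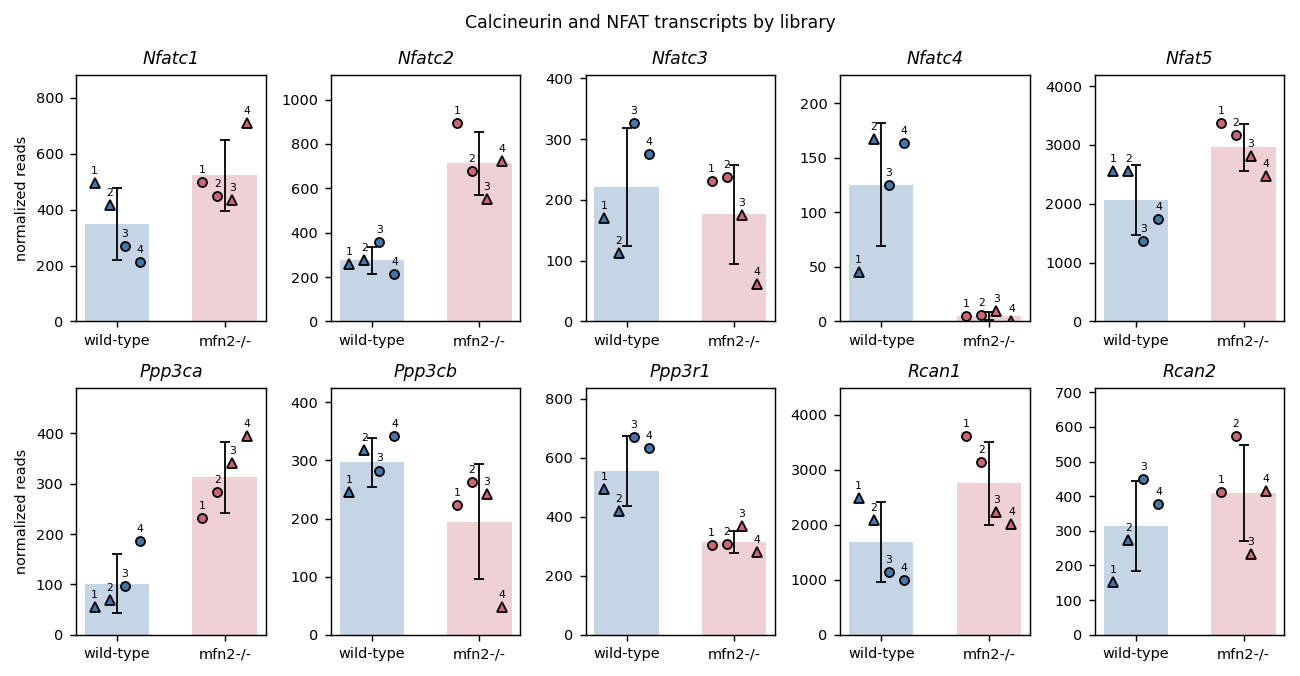
Normalized reads of the 10 genes in each library, with the number of the replicate beside its point. Bars are means of 4 libraries and error bars 1 SD, circles are libraries with Y-linked reads and triangles those without. The points of Nfatc2, Nfatc4, Ppp3ca and Ppp3r1 separate by genotype. Inside each genotype, replicates 1 and 2 lie above replicates 3 and 4 for Rcan1 and Nfat5 and below them for Ppp3ca. For Nfatc3 they lie below in wild-type and above in mfn2-/- libraries.

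Nfatc2 (chromosome 2) encodes NFATC2, also called NFAT1, the factor whose place in the nucleus the study followed. It was at 259, 278, 358 and 212 normalized reads in the wild-type libraries and at 894, 679, 551 and 724 in the mfn2-/- libraries. Every mfn2-/- library was above every wild-type library, and the highest wild-type value, in replicate 3, was well under the lowest mfn2-/- value, also in replicate 3. The means were 277 ± 60.7 and 712 ± 142 (SD, n = 4), with a log2 change of 1.36 (SE 0.24, 95% interval 0.85 to 1.88, limma adjusted p 0.00267). The exact permutation p was 0.0286 (two-sided), the smallest that 4 against 4 libraries can give. Each value rested on 114 to 1341 reads. The change was 1.50 among libraries with Y-linked reads and 1.23 among those without, and the call was kept in all 23 alternatives with a test.

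NFATC2 is abundant in lymphocytes, and markers of blood cells were read beside it. T lymphocyte markers summed to 2.67 to 38.7 normalized reads in wild-type and 0 to 18.4 in mfn2-/- libraries. Cd3e, Cd3g and Cd2 were at 0 in all wild-type libraries and had 4, 8 and 3 reads in 1 mfn2-/- library each. Cd8a (means of 11.4 in wild-type and 0.20 in mfn2-/- libraries), Lck (4.15 and 0.57) and Cd3d (3.42 and 0.72) went the other way. Cd4 was at 0.34 and 2.21. The part of such cells in the Nfatc2 difference was not tested. Macrophage markers summed to 54.0 to 152 and 118 to 204, and limma called 0 of 6 tested genes (1 at an unadjusted p under 0.05), as did edgeR and DESeq2. Means were higher in mfn2-/- libraries for Ptprc (0.40 and 10.2), Csf1r (0.67 and 21.8), Mrc1 (1.73 and 21.5) and Itgam (13.4 and 29.3). They were also higher for C1qa (0.79 and 5.01) and Emr1 (0 and 3.56). Ptprc, C1qa and Emr1 were under the filter on low values. Cd68 was nearly level (28.9 and 30.5), and only Cd14 of the list had a lower mean (19.7 and 13.99). The part of macrophages in the Nfatc2 difference was not tested either. The part of the 4 myogenic markers called higher (Sdc4, Des, Vcam1 and Myod1) in the Nfatc2 difference was not tested. The genes with the most similar pattern over the 8 libraries, measured as the root mean square (RMS) difference of centred log2 values, were Rybp (0.24), Elf1 (0.25) and Tmbim1 (0.26).

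Nfatc4 (chromosome 14), the family member known from neurons, heart and adipose precursors, went the opposite way. It was at 45.5, 167, 125 and 164 normalized reads in the wild-type and at 4.67, 5.53, 9.58 and 0 in the mfn2-/- libraries, which stood for 7, 7, 13 and 0 reads. A count of 0 in mfn2-/- replicate 4 allows up to 3 reads, or 5.50 normalized reads, by counting error alone. The groups did not overlap, and the lowest wild-type value was in the shallowest library, replicate 1, with 20 reads. The means of 125 ± 56.6 and 4.94 ± 3.93 (n = 4) gave a 25.4-fold lower level, with a log2 change of -4.67 (SE 1.02, interval -6.86 to -2.47, limma adjusted p 0.0110). At these few reads the size is imprecise: pseudocounts of 0.1 and 10 in place of 1 gave -5.63 and -3.08. Without wild-type replicate 4 the adjusted p was 0.0531. The change was -4.57 with and -4.76 without Y-linked reads.

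The pattern nearest to that of Nfatc4 was that of Cd248 (RMS difference 0.50), a gene of stromal cells, followed by Sfrp2 (0.51), a secreted Wnt modulator, and Matn4 (0.51), an extracellular matrix protein. Sfrp2 went from 232 ± 131 to 9.76 ± 9.27 normalized reads and Matn4 from 196 ± 74.2 to 10.5 ± 7.96. The fibroadipogenic and tenocyte markers named above moved in the same direction, and their part in the Nfatc4 result was not tested. Of 7 tested mural cell markers 2 were called lower and 1 higher, where 6.36% and 3.99% of all genes were. The mural markers summed to 3840 to 4970 in wild-type and 2511 to 3973 in mfn2-/- libraries.

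Nfatc1 (chromosome 18), which encodes a factor of osteoclasts, heart valves and slow muscle, was at 494, 417, 270.3 and 213 normalized reads in wild-type and at 497, 449, 433 and 709 in mfn2-/- ASCs. The mfn2-/- replicates 1 to 3 lay close to wild-type replicates 1 and 2, and mfn2-/- replicate 4 was highest. The difference of 0.63 (SE 0.29, interval 0.00 to 1.26) did not pass (limma adjusted p 0.199, exact permutation p 0.114). Osteoclast markers summed to 712 to 938 in wild-type and 97.3 to 412 in mfn2-/- libraries. Nearly all of that sum was Ctsk (524 ± 151 and 17.9 ± 21.5) and Calcr (328 ± 116 and 234 ± 133). Of these 2 tested genes only Ctsk was called, lower, where 6.36% of all genes were. Acp5 and Mmp9 were under the filter on low values and the other 2 of the 6 listed were not analysed here. The sum therefore says little about osteoclast genes as a group.

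Nfatc3 (chromosome 8), widely expressed and known from embryonic muscle, was at 171, 112, 327 and 275 in wild-type and 231, 239, 175 and 62.3 in mfn2-/- ASCs. The groups overlapped, and the lowest value was in the shallow mfn2-/- replicate 4. The difference of -0.38 (SE 0.47, interval -1.39 to 0.64, limma adjusted p 0.665) became 0.06 without that library, so it had no stable direction. In the annotation 1.87% of the exon bases of Nfatc3 lie under exons of Esrp2 on the other strand, and whether strand was used in counting is not given in the sources used here.

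Read per kilobase of annotated exon, so that genes of unequal length can be compared, the 4 NFATc genes together gave 113 ± 9.28 normalized reads per kb in wild-type and 153 ± 21.1 in mfn2-/- ASCs. Nfatc2 took 23.0% ± 3.67 of this sum in wild-type and 43.8% ± 3.98 in mfn2-/- ASCs, with values of 21.7%, 21.8%, 28.3% and 20.0% and then 49.3%, 44.1%, 41.1% and 40.6%. Nfatc4 held 6.93% to 28.2% in wild-type libraries and 0% to 1.30% in mfn2-/- libraries. The share of Nfatc1 was 40.9% ± 14.2 and 45.5% ± 7.74 and that of Nfatc3 16.9% ± 7.75 and 10.1% ± 4.76, with overlapping ranges for both. In these units Nfatc1 had the largest and Nfatc2 the next largest mean share in both groups. Exon length is that of all annotated transcripts pooled. Without it, Nfatc2 took 28.2% in wild-type and 50.0% in mfn2-/- ASCs.

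**Figure D2:**
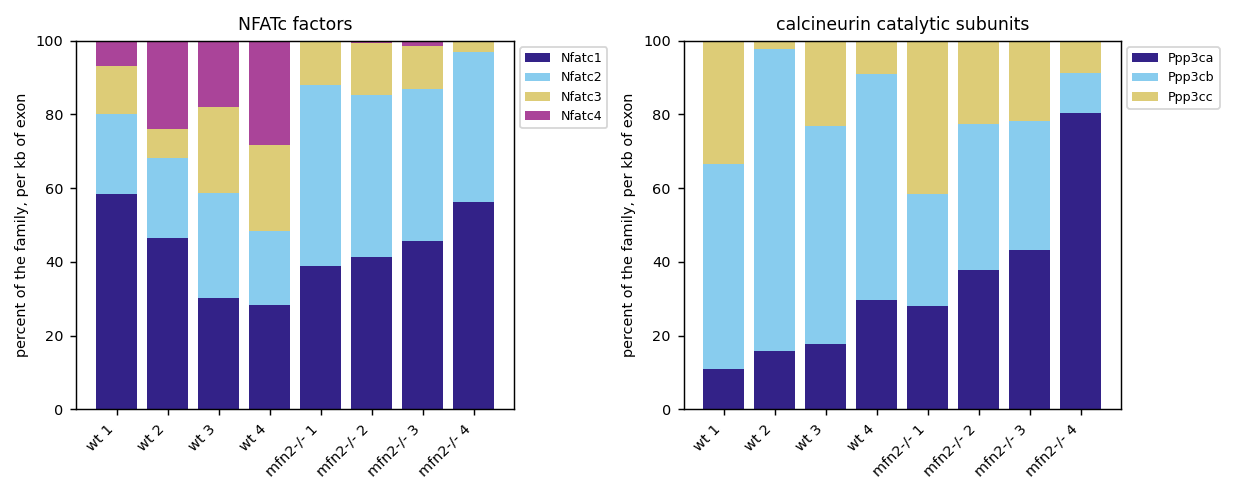
Share of each gene in the per-kb sum of the 4 NFATc genes (left) and of the 3 calcineurin catalytic genes (right), in percent, by library. Nfatc4 is visible in the wild-type libraries and nearly absent from the mfn2-/- libraries, and Ppp3cb holds the largest catalytic share in every wild-type library.

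Nfat5 (chromosome 8), the factor of osmotic stress, was the most abundant factor of the family, at 2549, 2560, 1375 and 1747 normalized reads in wild-type and 3373, 3175, 2820.1 and 2476 in mfn2-/- ASCs. In mfn2-/- ASCs 3 of the 4 values were above every wild-type value, and replicate 4 lay inside the wild-type range. Means of 2058 ± 594 and 2961 ± 396 gave a difference of 0.56 (SE 0.22, interval 0.08 to 1.04, limma adjusted p 0.133). The call was made with upper-quartile scaling (limma adjusted p 0.0415) and with library weights (0.000428). The difference was 1.08 among libraries with Y-linked reads and 0.05 among those without, and the genotype by kind interaction had an adjusted p of 0.0496 (limma), as for 1.47% of all genes.

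Among the calcineurin subunits, 1 catalytic gene of the 10 rose and the other did not pass. Ppp3ca (chromosome 3), the alpha catalytic subunit and the main form of striated muscle and brain, was at 54.6, 69.5, 96.4 and 186 in wild-type and at 232, 283, 341 and 394 in mfn2-/- ASCs. All mfn2-/- values were higher, and wild-type replicate 4 was nearest to them. Means of 102 ± 59.1 and 313 ± 70.3 (n = 4) gave a log2 change of 1.74 (SE 0.40, interval 0.89 to 2.60, limma adjusted p 0.0136, exact permutation p 0.0286). The change was 0.93 among libraries with Y-linked reads and 2.55 among those without. Of the 23 alternatives, only the fit without the intensity trend lost the call (limma adjusted p 0.0595). Its nearest patterns were Cops8 (RMS difference 0.29), Slc9a9 (0.31) and Tfrc (0.32), the transferrin receptor gene, which rose from 90.9 ± 36.9 to 282 ± 105.

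Ppp3cb (chromosome 14), the beta catalytic subunit, was at 246, 318, 283 and 341 in wild-type and 223, 263, 242 and 47.6 in mfn2-/- ASCs. The ranges overlapped, and mfn2-/- replicate 4 stood far below the other 3. The difference of -0.86 (SE 0.47, interval -1.87 to 0.15, limma adjusted p 0.282) was -0.28 without that shallow library. Ppp3cc, the gamma subunit, which is not one of the 10, was weak at 27.0 ± 20.9 and 54.6 ± 37.2 normalized reads and did not pass (limma adjusted p 0.508).

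Ppp3r1 (chromosome 11), the regulatory B subunit that every catalytic subunit needs, was at 496, 419, 671 and 634 in wild-type and 304, 307, 368 and 282 in mfn2-/- ASCs. The groups did not overlap, although wild-type replicate 2 and mfn2-/- replicate 3 were close. Means of 555 ± 118 and 315 ± 36.7 (n = 4) gave a log2 change of -0.80 (SE 0.23, interval -1.29 to -0.31, limma adjusted p 0.0411, exact permutation p 0.0286). The change was -1.09 with and -0.50 without Y-linked reads. This call was near the threshold and was lost in 13 of 23 alternatives, among them edgeR (0.0795) and 6 of the 8 fits that left out 1 library (0.0545 to 0.138), that is all but those without wild-type replicate 1 or 2. In the annotation 14.3% of its exon bases are shared with Wdr92 on the same strand, and Wdr92 went from 44.7 ± 20.6 to 89.5 ± 46.5. The nearest patterns were Lasp1 (RMS difference 0.14), Bcl7a (0.14) and Clstn1 (0.15).

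Per kilobase of exon, Ppp3ca took 10.9% to 29.6% of the catalytic sum in wild-type libraries and 27.9% to 80.3% in mfn2-/- libraries, ranges that overlapped slightly. Ppp3cb took 64.5% ± 11.8 in wild-type and 29.0% ± 12.6 in mfn2-/- ASCs, without overlap. The catalytic sum was 52.9 ± 7.99 and 71.6 ± 15.3 normalized reads per kb. Divided by Ppp3r1 per base it was 0.326, 0.340, 0.261 and 0.322 in wild-type and 0.884, 0.789, 0.693 and 0.563 in mfn2-/- libraries, so every mfn2-/- library had the higher ratio of catalytic to regulatory transcript. These shares are given without a test.

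Of the regulators, Rcan1 (chromosome 16) had the highest level per kilobase of the 10 genes in both groups, 545 ± 236 normalized reads per kb in wild-type and 892 ± 243 in mfn2-/- ASCs. It was at 2493, 2091, 1134 and 1003 normalized reads in wild-type and 3607, 3143, 2234 and 2018 in mfn2-/- ASCs. Inside each group, replicates 1 and 2 were above replicates 3 and 4, by 1.10 in wild-type and 0.67 in mfn2-/- ASCs on the log2 scale. The groups overlapped, and the difference of 0.78 (SE 0.30, interval 0.13 to 1.42) did not pass (limma adjusted p 0.122, exact permutation p 0.143).

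The difference of Rcan1 between the genotypes depended on which libraries were set against each other. It was 1.66 among libraries with Y-linked reads and -0.10 among those without, with an interaction of 1.76 (limma adjusted p 0.00436). Between libraries of the same replicate numbers it was 0.56 in replicates 1 and 2 and 0.99 in replicates 3 and 4. In this layout the kind of library and the replicate pair divide each group in the same way, so an effect of the kind on the genotype difference and a shift between replicate pairs cannot be told apart. Egr2 and Hspa1b, inducible genes of the lists below, had the same feature, with interaction adjusted p of 0.0233 and 0.00171 (limma).

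**Figure D3:**
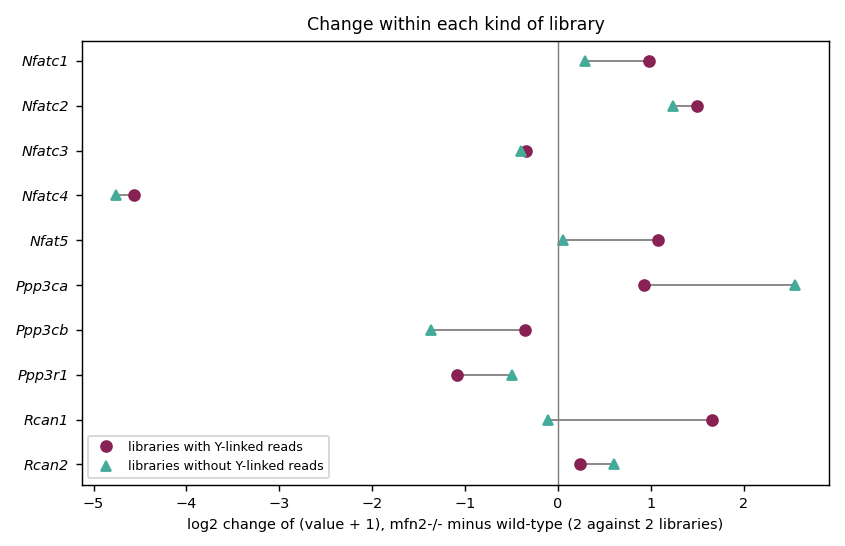
Log2 change of (value + 1), mfn2-/- minus wild-type, computed with 2 against 2 libraries among those with Y-linked reads (circles) and among those without (triangles), for the 10 genes. The symbols lie far apart for Rcan1 (1.66 and -0.10) and Ppp3ca (2.55 without, 0.93 with) and close together for Nfatc2, Nfatc3 and Nfatc4.

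Rcan2 (chromosome 17), the related regulator of brain and muscle, was at 152, 275, 451 and 378 in wild-type and 411, 573, 234 and 414 in mfn2-/- ASCs. The groups overlapped widely, and the difference of 0.42 (SE 0.36, interval -0.36 to 1.19) did not pass (limma adjusted p 0.509). Rcan3, listed among the other regulators, was lower without overlap, at 81.9, 106, 77.6 and 97.8 against 22.0, 28.4, 14.7 and 0, but did not pass (-3.16, limma adjusted p 0.0794).

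**Figure D4:**
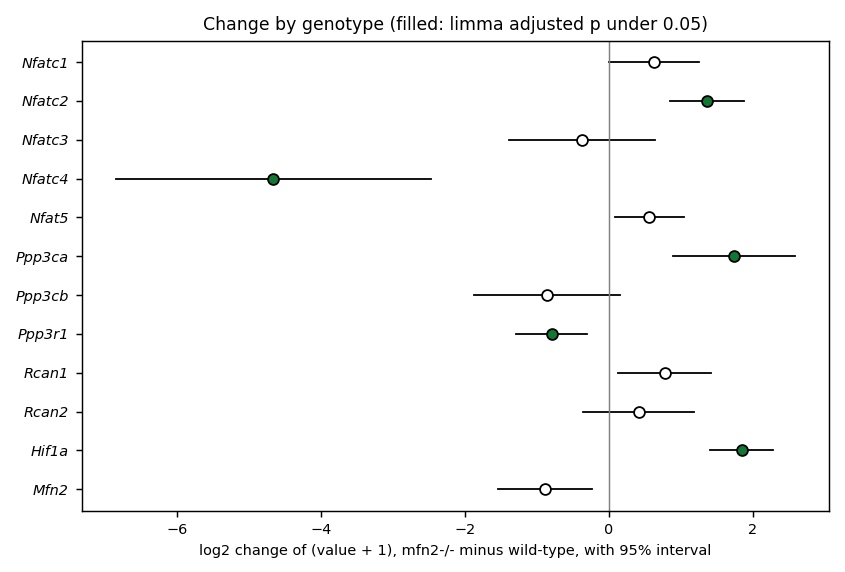
Log2 change of (value + 1), mfn2-/- minus wild-type, with its 95% interval for the 10 genes and for Hif1a and Mfn2. Filled points have a limma adjusted p under 0.05: Nfatc2 (1.36), Ppp3ca (1.74) and Hif1a (1.85) to the right, Nfatc4 (-4.67) and Ppp3r1 (-0.80) to the left.

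Ordered by level per kilobase, the genes in wild-type ASCs ran from Rcan1 through Ppp3r1 (172), Nfat5 (112), Rcan2 (71.8), Nfatc1 (46.6), Ppp3cb (33.7), Nfatc2 (26.2), Nfatc4 (21.6) and Nfatc3 (18.9) to Ppp3ca (10.2 normalized reads per kb). Of the 9 pairs of neighbours in that order, only Rcan1 and Ppp3r1 had ranges that did not overlap. In mfn2-/- ASCs Nfat5 (161) was above Ppp3r1 (97.7), and Rcan2 (93.3), Nfatc1 (69.9) and Nfatc2 (67.3) followed. Ppp3ca (31.3), Ppp3cb (22.0), Nfatc3 (15.1) and Nfatc4 (0.85) came last. Here 4 of 9 neighbouring pairs were apart: Rcan1 and Nfat5, Nfat5 and Ppp3r1, Nfatc2 and Ppp3ca, and Nfatc3 and Nfatc4. Ppp3ca thus stood last of 10 in wild-type and at place 7 in mfn2-/- ASCs.

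Around the 10 genes, lists of the pathway held 89 genes, 68 of which were tested. Of these 9 were called higher and 4 lower, with a median of 0.09, where 3.99% of all genes were called higher and 6.36% lower and the median was -0.16. The same background stands beside the counts of the single lists. Among 7 tested further calcineurin subunits, inhibitors and anchors, limma called 0 (1 at an unadjusted p under 0.05), edgeR 0 and DESeq2 1, and the median was 0.69. The most abundant were Bcl2, an apoptosis inhibitor that binds calcineurin (254 ± 114 and 377 ± 19.7, limma adjusted p 0.214), and Cabin1, a calcineurin-binding corepressor (223 ± 56.2 and 225 ± 90.8, 0.936). Upstream, calmodulin and store-operated calcium entry had 1 of 17 tested genes called, which was lower, with a median of -0.32. That gene was Calm3, a gene for calmodulin, at 628, 823, 1263 and 1128 in wild-type and 331, 344, 370 and 324 in mfn2-/- ASCs (-1.44, limma adjusted p 0.00184), which had a narrow range in mfn2-/- libraries. Atp2a2, the calcium pump of the reticulum, was not called (2393 ± 399 and 3503 ± 419.7, log2 difference 0.56, limma adjusted p 0.0700). The calcium sensor Stim1 (213 ± 79.1 and 206 ± 41.5) and the channel Orai1 (36.5 ± 14.1 and 23.9 ± 6.63), named after their values were seen, did not pass (limma adjusted p 0.999 and 0.701).

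The list of NFAT kinases and nuclear export held 16 tested genes, among them also Homer1, Homer2 and Homer3. Of the 16, 2 were called, with a median of 0.04. Both were higher and were casein kinase 1 genes. Csnk1d was at 787, 1222, 635 and 732 in wild-type and 2487, 2173, 1403 and 1832 in mfn2-/- ASCs (1.24, limma adjusted p 0.00548). Csnk1a1 went from 835 ± 154 to 1842 ± 702 (1.09, 0.0119). Neither overlapped between groups. Gsk3b (566 ± 110.5 and 450 ± 56.8) and Dyrk1a (462 ± 52.2 and 692 ± 259), also named after their values were seen, did not pass (limma adjusted p 0.392 and 0.331). Among 9 tested calcineurin substrates and NFAT partners, 2 were called, both higher: Crtc2, a CREB coactivator that calcineurin dephosphorylates (139 ± 41.6 to 300 ± 76.6, limma adjusted p 0.0436), and Ep300, an acetyltransferase coactivator (989 ± 89.1 to 1617 ± 337, 0.0348). Both calls were near the threshold and were lost in 9 and 12 of 23 alternatives.

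**Figure D5:**
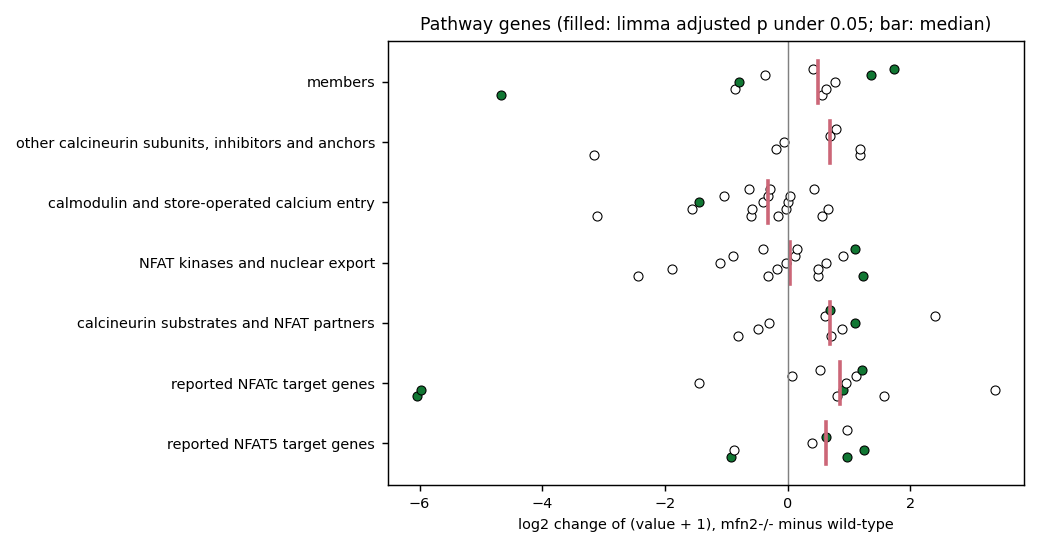
Log2 change of (value + 1), mfn2-/- minus wild-type, for each tested gene of the 10 and of the 6 pathway lists, 1 point a gene. Filled points have a limma adjusted p under 0.05, and the vertical bar in each row is the list's median, from -0.32 for calmodulin and calcium entry to 0.86 for reported NFATc targets.

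Downstream, 12 of 21 reported NFATc target genes were tested. Of the other 9, mostly cytokines and ligands of lymphocytes, 6 were not analysed here and 3 were under the filter on low values. Of the 12, 2 were called higher and 2 lower, with a median of 0.86. Vcam1, an adhesion molecule also on the myogenic list, rose from 1380 ± 148 to 3194 ± 280 (1.21, limma adjusted p 0.000520). Egr2, an immediate early factor, was at 1094, 1004, 724 and 747 against 2146, 2115, 1226 and 1327 (0.91, limma adjusted p 0.0274). Ptgs2, the inducible cyclooxygenase, went from 719, 671, 482 and 414 to 15.3, 15.0, 18.4 and 0 (-6.05, limma adjusted p 0.000603), and Ctsk, the protease cathepsin K, from 524 ± 151 to 17.9 ± 21.5 (-5.97, 0.00192). Ctsk is also an osteoclast marker, while the osteoclast genes Acp5 and Mmp9 were at 0 in all mfn2-/- libraries and at no more than 22 and 2 reads in any wild-type library. The called targets therefore split evenly by direction, and the part of the fibroadipogenic markers in the 2 falls was not tested.

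Of 7 tested reported NFAT5 target genes 3 were called higher and 1 lower, with a median of 0.63. Slc38a2, an amino acid transporter, was at 2176, 1997, 1478 and 1342 in wild-type and 4479, 3930.5, 3603 and 4292 in mfn2-/- ASCs (1.24, limma adjusted p 0.00129). Hspa4l, an osmotic stress chaperone, went from 289.6 ± 99.7 to 554 ± 122 (0.97, 0.0407) and Slc6a6, the taurine transporter, from 569.6 ± 39.8 to 885 ± 88.5 (0.63, 0.0397). Slc5a3, the myo-inositol transporter, fell from 3753 ± 372 to 2016 ± 537 (-0.93, 0.0119). The osmolyte carriers Slc6a6 and Slc5a3 thus moved in opposite directions. The calls of Egr2 and Hspa4l were lost in 5 and 8 of 23 alternatives. Hspa1b, a heat shock gene whose reads may be shared with the near-identical Hspa1a, was higher without overlap but did not pass (0.96, limma adjusted p 0.0534). It was called in 13 of 23 alternatives, among them edgeR (adjusted p 0.0272) and DESeq2 (adjusted p 0.00102).

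The remaining marker lists were those of endothelial cells, myofibers and T lymphocytes. Of 8 endothelial markers, 0 were called by limma (0 at an unadjusted p under 0.05), edgeR or DESeq2, and they summed to 964 to 1523 in wild-type and 1217 to 1776 in mfn2-/- libraries. Of 10 myofiber genes 2 were called higher and 3 were higher without overlap, where 3.99% and 7.36% of all genes were. Their sums were 1026 to 2862 in wild-type and 2772 to 3920 in mfn2-/- libraries. T lymphocyte markers had no gene that passed the filter.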

How the data were processed

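RNA-seq libraries were made from total RNA of sorted ASCs with a stranded low-input kit, 4 per genotype, and grouped by their labelled genotype. Submitters' processing notes name Trim Galore, HISAT2, featureCounts, DESeq2 and the mm9 build. Each deposited value is a normalized read count, entered here as a signal, which the authors had obtained by dividing a library's reads by 1 factor. 100% of the values were whole multiples of that factor within 0.01, so reads were recovered for depth and for edgeR and DESeq2, and 0 columns were left unused. Intervals between libraries cover these libraries only, and without molecular identifiers amplified copies cannot be told from molecules.

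Genes with a mean of at least 10 entered a limma fit (version 3.58.1, R 4.3.3) of log2(value + 1) on genotype alone, with a trend of the variance on intensity. Two-sided p-values were adjusted by Benjamini-Hochberg, with a threshold of 0.05. Exact permutation tests covered the 70 arrangements of 4 against 4 libraries. The recovered reads were tested with the quasi-likelihood test of edgeR 4.0.16 under TMM and with DESeq2 1.42.0. The tests were checked on a single draw of simulated counts, in which 189 of 11263 genes were changed. In that draw limma and above all DESeq2 made false calls at more than the 0.05 level. A single draw cannot show whether the smaller excess of limma is stable. The share of false calls also depends on how many genes change, and 10.4% of genes were called in these data. False calls were 9.09% of those of limma, 5% of edgeR and 31.65% of DESeq2. Of genes simulated with a log2 change of 2, limma recovered 31.75%, edgeR 30.16% and DESeq2 50.26%, so a gene that did not pass may still differ. Other fits used pseudocounts of 0.1 or 10, a minimum mean of 50 or none, 4 other scalings, the replicate block, no trend, library weights, a Y-linked term and each library left out. Omission of both shallow libraries, wild-type replicate 1 and mfn2-/- replicate 4, was chosen after seeing the data.

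The 10 genes and all lists were chosen with earlier results of these data known. Within each pathway list the text names the 3 called genes with the largest change and the 2 most abundant, and for each called gene of the 10 the 3 nearest patterns. Of each marker list the rule names the 2 most abundant genes, given here mostly as sums. A gene that this rule names is not reported here. Rcan3, Ppp3cc, Stim1, Orai1, Gsk3b, Dyrk1a, Slc6a6, Pax7 and Myod1 were named after their values were seen. So were Ccl2, Xpo1, Ptprc, Emr1, C1qa, Csf1r, Mrc1 and Cd14. Exon lengths and chromosomes are from GENCODE M21 (GRCm38), and promoter windows from RefSeq. The table holds 24 symbols turned into dates, which stayed in the tests. Python 3.11.15 made tables and figures.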

Additional observations from a re-analysis of the deposited data

Results flagged for a closer look

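Among the 10 genes, the genotype difference of Rcan1 was not alike in the libraries with and without Y-linked reads, by an interaction of 1.76 on the log2 scale (limma adjusted p 0.00436). Nfat5 had an interaction of 1.03 (limma adjusted p 0.0496), close to the threshold. For both genes the 2 kinds of library are also the replicate pairs 1 and 2 or 3 and 4 inside each group, and the kind and the pair cannot be told apart.

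A single library stood apart from the other 3 of its group in 3 of 62 groups of values, where chance alone gives about 5%. Atp2a2 was at 4127 normalized reads in mfn2-/- replicate 3 against 3248 to 3372 in the others. Csnk1a1 was at 2890 (2889.9) in mfn2-/- replicate 4 against 1399 to 1550, a library of low depth in which this value rested on 1577 reads. Slc5a3 was at 4306 in wild-type replicate 2 against 3510 to 3643.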

How the results depend on the processing

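Of 230 tested values of the 10 genes under alternatives, 208 kept direction and side of the threshold, 15 lost a call, 6 gained one and 1 turned sign: Nfatc3 was 0.063 without mfn2-/- replicate 4 (-0.66 to 0.063 over single libraries left out). The 1217 called genes became 633 without the intensity trend and 3037 with library weights, and the range with single libraries left out was 670 to 1307, the lowest without wild-type replicate 3 (749 without replicate 4). Of the 10 genes, 2 called higher became 1 without the trend and 5 with weights. The 2 called lower became 1 with no filter, equal totals, upper-quartile scaling, no trend, edgeR or without the shallow libraries, and 0 to 2 with single libraries left out, 0 being the fit without wild-type replicate 4. Pathway calls numbered 13, 5 without the trend, 27 with weights and 8 to 16 with single libraries left out, 8 each without wild-type replicates 3 or 4 or mfn2-/- replicates 1 or 2. Cabin1, at -0.06, turned to 0.14 with upper-quartile scaling, 0.013 with quantile normalization, 0.15 with weights, 0.10 with edgeR, 0.012 with DESeq2, 0.075 without the shallow libraries, and ran from -0.26 to 0.27 with single libraries left out. Atp2a1, at 0.66, turned to -0.31 with weights. The causes were not tested. The median change of all genes was -0.16, -0.11 with equal totals, 0.04 with upper-quartile scaling, 0.13 with quantile normalization and -0.21 without fibroadipogenic and tenocyte markers, and relative to it each of the 10 genes kept its direction in all 5. Libraries of the same replicate number did not deviate together (correlations over genes of -0.03, -0.05, 0.04 and -0.11), so the numbers were not taken to pair the libraries, although a shift of single genes such as Rcan1 between replicate pairs was not tested by this. The replicate block called 1043 genes (8.87%), left 1 of the 10 genes called lower since Ppp3r1 had an adjusted p of 0.0651, and gained Rcan1 (0.0214). Under the block Crtc2 (0.0744) and Ep300 (0.0604) also lost their calls and Hspa1b (0.0193) gained one. Depth limits Nfatc4 most, at 0 to 13 reads per mfn2-/- library.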
